A study of Mus musculus with 8 samples.

Results

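The mouse Hox clusters hold 6 miRNA hairpins, Mir10a, Mir10b, Mir196a-1, Mir196a-2, Mir196b and Mir615, and 7 of their mature miRNAs are described here: mmu-miR-10a-5p, mmu-miR-10a-3p, mmu-miR-10b-5p, mmu-miR-10b-3p, mmu-miR-196a-5p, mmu-miR-196b-5p and mmu-miR-615-3p, written below without the species prefix. They were chosen by name from the 1966 mature miRNA names of the count table, of which 1019 had at least 1 count. They were read in small RNA libraries of NIH3T3 cells (3T3 below), a continuous line of mouse embryonic fibroblasts, collected 48 h after transient transfection. The wells received U6-Lin28aIR, U6-MosIR, CAG-EGFP-Lin28IR or CAG-EGFP-MosIR, plasmids that express a long inverted repeat of Lin28 or Mos mRNA sequence, and 2 separately transfected wells were sequenced per plasmid. All 8 libraries therefore carried an expressed hairpin, and no library of untransfected cells entered the comparisons. U6 is a promoter read by RNA polymerase III that gave a nearly blunt hairpin, whereas the CAG-EGFP plasmids use a promoter read by RNA polymerase II and place the hairpin behind an EGFP reporter, with long single-stranded ends and a longer double-stranded stretch. The study's legends mark a Lin28b segment in the CAG-EGFP-Lin28IR hairpin, so the U6 and CAG-EGFP versions of Lin28 may also differ in hairpin sequence. Promoter, reporter, hairpin ends, hairpin length and any such sequence difference changed together and cannot be told apart. The p-values of the count test (edgeR) rest on the spread between wells of 1 line given the same plasmid. Those of the ratio tests come from exchanging all 8 libraries, so their spread also holds differences between the 2 plasmids on each side.

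Hox genes encode homeodomain transcription factors that give body segments their identity along the head-to-tail axis, and the miRNA hairpins lying between them are transcribed with the clusters in the embryo. A Dicer product enters an Argonaute protein and finds its targets mainly through its seed, the bases 2 to 8 counted from 1 at its 5′ end. Mature miR-10 and miR-196 are known to repress Hox mRNAs. Cultured fibroblasts are known to keep the Hox gene pattern of the body region they came from. The strand that Argonaute usually keeps is the guide, and the opposite arm of the hairpin is the passenger.

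The mature sequences are shown because they set which members share a seed and which reads can be told apart. They are given from RefSeq on GRCm38.p6, 5′ to 3′, with the seed in capitals. All 7 members had a sequence there, at the coordinates of the count table.
miR-10a-5p: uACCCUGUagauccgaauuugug
miR-10b-5p: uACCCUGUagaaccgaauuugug
miR-10a-3p: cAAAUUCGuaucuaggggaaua
miR-10b-3p: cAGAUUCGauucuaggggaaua
miR-196a-5p: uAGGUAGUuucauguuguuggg
miR-196b-5p: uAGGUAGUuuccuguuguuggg
miR-615-3p: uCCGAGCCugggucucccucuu

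Only 2 seeds were shared inside the set. The guides miR-10a-5p and miR-10b-5p share ACCCUGU and differ by 1 base of 23, U12A with positions counted from the 5′ end and miR-10a-5p given first. The guides miR-196a-5p and miR-196b-5p share AGGUAGU and differ by 1 base of 22, A12C with miR-196a-5p first. In both pairs the difference lies outside the seed and near the middle, so that 0 of the 16-base stretches of miR-10a-5p (0 of 8) or miR-196a-5p (0 of 7) occur in the partner. A perfectly matching read of 16 bases or more therefore belongs to 1 member of the pair. The passengers miR-10a-3p and miR-10b-3p differ by A3G, U9A and A10U, the first of them inside the seed. Among the other mature mouse miRNAs with a RefSeq sequence in the table, no name outside the members carried the seed of a member.

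The hairpins lie in all 4 Hox clusters (coordinates on GRCm38.p6, genes from GENCODE M21). Mir10a (chr11:96317165-96317274, plus strand) lies between Hoxb5 and Hoxb4, 992 bp before the annotated start of Hoxb4 and in no annotated host. Mir196a-1 (chr11:96265164-96265265, plus strand) lies 6191 bp before Hoxb9. Mir10b (chr2:74726070-74726137, plus strand) is intronic in Hoxd3 and Hoxd4 transcripts. Mir196a-2 (chr15:102973350-102973434, plus strand) lies between Hoxc10 and Hoxc9, 3004 bp before Hoxc9, inside an intron of a long processed transcript of Hoxc5, and Mir615 (chr15:103014910-103015001, plus strand) is intronic in both Hoxc5 transcripts that cover it. Mir196b (chr6:52230081-52230165, minus strand) lies at Hoxa9, in an exon of 2 of the 3 Hoxa9 transcripts over it and in an intron of the third, 1031 bp from Hoxa10. The 12 mature miRNA loci listed within the 4 clusters were the 2 arms of these 6 hairpins and no others.

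**Figure D1:**
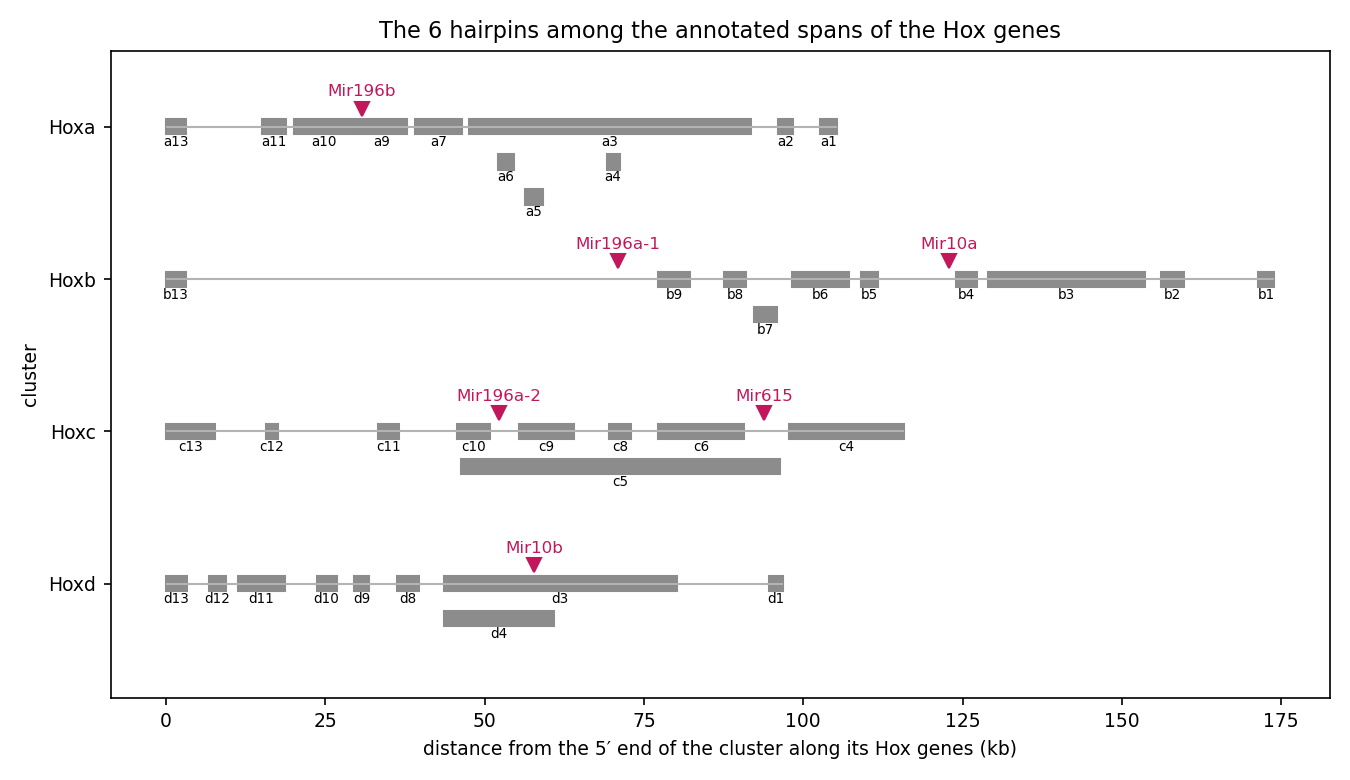
Position of the 6 hairpins (triangles) among the annotated spans of the Hox genes (grey boxes, overlapping spans on lower lines) in the 4 mouse clusters, with distance in kb from the 5′ end of each cluster along its genes. Mir196a-1, Mir196a-2 and Mir196b lie at or beside paralogue 9, Mir10a and Mir10b at or beside paralogue 4, and Mir615 within the span of Hoxc5.

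Levels are given as RPM, the perfectly matching reads of a miRNA per 1000000 perfectly mapped reads of its library. The libraries held 12898619 to 16228597 such reads, so 3 counts, the limit that a count of 0 allows, correspond to 0.185 to 0.233 RPM (counting error only). Reads on miRNAs made up 18.7 to 22.1% of mapped reads in U6 libraries and 10.9 to 16.5% in CAG-EGFP libraries, a difference that enters every RPM value. All 8 fibroblast or mesenchymal marker miRNAs were above 1 RPM, with a sum of 69512 to 84017 RPM in U6 and 35748 to 56905 RPM in CAG-EGFP libraries, whereas 1 of 7 embryonic stem cell markers had any count. Among the neuronal markers, miR-9-5p averaged 159 RPM and miR-128-3p 49.7 RPM, and their list summed to 238 to 282 RPM in U6 and 144 to 209 RPM in CAG-EGFP libraries; the neuron-defining miR-124-3p was at 0.528 RPM. In bulk RNA, fewer cells of a type and less RNA per cell cannot be told apart.

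Together the 7 members held 1.62% of miRNA counts, 1.61% in U6 and 1.65% in CAG-EGFP libraries. They spanned the range from one of the abundant miRNAs of these cells to a single read. Ordered by mean RPM over the 8 libraries, miR-10b-5p was 23rd with 1581 ± 372 RPM (SD, n = 8 here and in this list), miR-10a-5p was 33rd with 973 ± 239 RPM and miR-196a-5p was 107th with 68.4 ± 15.8 RPM. The passengers miR-10a-3p (29.6 ± 8.26 RPM, 143rd) and miR-10b-3p (24.98 ± 8.08 RPM) came next, then miR-615-3p (7.14 ± 1.57 RPM, 200th), and miR-196b-5p (0.00969 RPM) was last. Library ranges overlapped between miR-10b-5p and miR-10a-5p and between miR-10a-3p and miR-10b-3p, the 2 pairs of neighbours whose order is not clear beyond the spread over all libraries, although within each library miR-10b-5p exceeded miR-10a-5p and miR-10a-3p exceeded miR-10b-3p. No other neighbours overlapped. The most abundant miRNA of the cells, miR-21a-5p, had 30.5 times the counts of miR-10b-5p. Read counts between miRNAs also carry ligation and PCR preferences, which were not corrected.

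**Figure D2:**
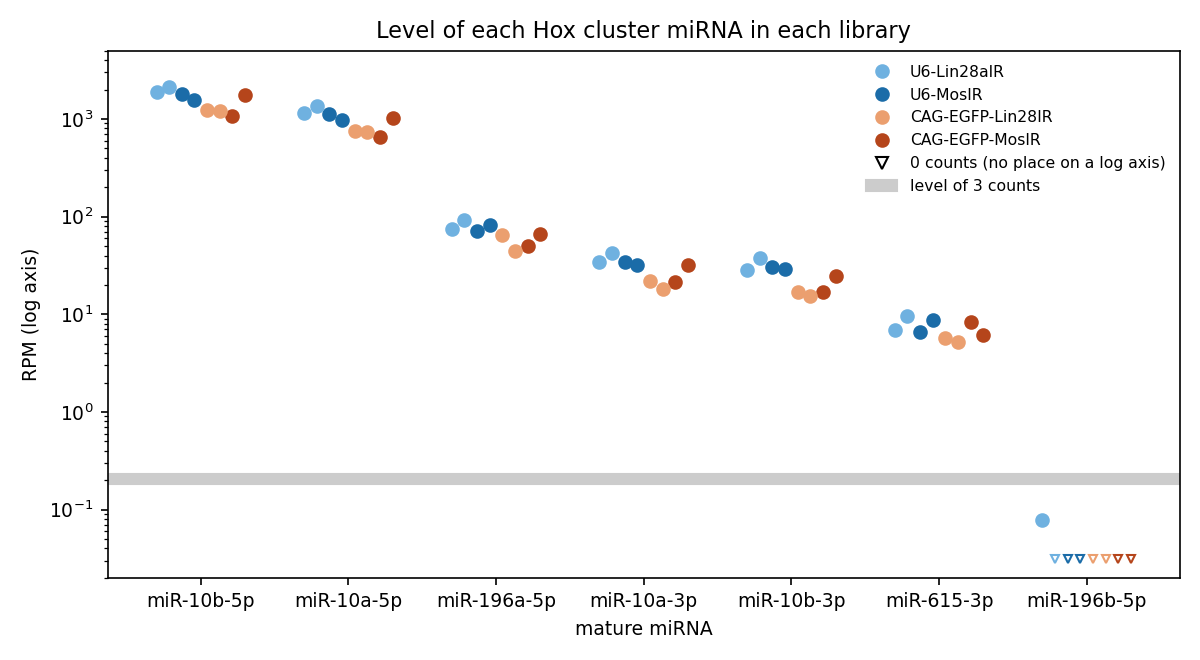
RPM (log axis) of the 7 members in each of the 8 libraries, 1 filled point per library coloured by plasmid, with open triangles for libraries without a count and the level of 3 counts as a grey band. The guides of miR-10 lie between 661 and 2106 RPM in every library, and miR-196b-5p has 1 count in 1 library.

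The guide of Mir10b, at the 3′ side of the HoxD cluster, was the most abundant member. miR-10b-5p was at 1888 and 2106 RPM in U6-Lin28aIR, 1796 and 1564 RPM in U6-MosIR, 1236 and 1201 RPM in CAG-EGFP-Lin28IR, and 1081 and 1775 RPM in CAG-EGFP-MosIR libraries. Both U6-Lin28aIR wells were above every other well, the second CAG-EGFP-MosIR well lay among the U6 wells, and the promoter groups overlapped. Its fold in U6 over CAG-EGFP libraries is set out with the other members below.

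miR-10a-5p, the guide from the HoxB cluster with the same seed, followed it library by library. It was at 1156 and 1350 RPM in U6-Lin28aIR, 1117 and 973 RPM in U6-MosIR, 749 and 744 RPM in CAG-EGFP-Lin28IR, and 661 and 1030 RPM in CAG-EGFP-MosIR libraries. Again the U6-Lin28aIR wells were the highest, the first CAG-EGFP-MosIR well was the lowest, and the promoter groups overlapped through the second CAG-EGFP-MosIR well. Because the pair shares its seed, the summed level of both guides, 2553 ± 609 RPM (SD, n = 8), is the amount of the ACCCUGU seed counted under these names. A sequence to search for the seed was at hand for 1675 of the 1966 names.

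The counts of miR-10b-5p over miR-10a-5p gave a ratio of 1.63 and 1.56 in U6-Lin28aIR, 1.61 and 1.61 in U6-MosIR, 1.65 and 1.61 in CAG-EGFP-Lin28IR, and 1.63 and 1.72 in CAG-EGFP-MosIR libraries. The whole range was 1.56 to 1.72, a coefficient of variation of 2.86% against 1.10% from counting error alone. In RPM, which the share of reads on miRNAs enters, each guide varied about 2-fold between its lowest and highest library (1.95-fold for miR-10b-5p and 2.04-fold for miR-10a-5p). With TMM scaling the ranges were narrower, at 7363 to 10908 CPM for miR-10b-5p and 4506 to 6610 CPM for miR-10a-5p. The geometric mean ratio was 1.60 in U6 and 1.65 in CAG-EGFP libraries, a difference that did not pass the test (exact permutation test over 4 against 4 libraries, two-sided, p = 0.0571, adjusted p = 0.229 over 8 ratio tests; the smallest p this design allows is 0.0286). Between hairpins it was 1.61 in Lin28 and 1.64 in Mos libraries (exact permutation p = 0.514, adjusted p = 0.588). Of the 186 other miRNAs at 10 RPM or more, the one with the most similar profile to each guide was the other: after TMM scaling, the root mean square difference of their centred log2 CPM profiles over the 8 libraries was 0.04, against a median of 0.24 for miR-10a-5p with all candidates. The next most similar were miR-221-5p and miR-100-5p for miR-10a-5p (0.07 and 0.08) and miR-221-5p and miR-28a-3p for miR-10b-5p (0.07 for each). These libraries share their cells and preparation, and the likeness is a description without a test.

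The passengers of both miR-10 hairpins were detected in every library at a small share of their guides. miR-10a-3p was at 34.7 and 42.3 RPM in U6-Lin28aIR, 34.2 and 32.2 RPM in U6-MosIR, 22.1 and 17.95 RPM in CAG-EGFP-Lin28IR, and 21.5 and 31.8 RPM in CAG-EGFP-MosIR libraries. Every U6 well was above every CAG-EGFP well, by a narrow margin for the second CAG-EGFP-MosIR well. miR-10b-3p was at 28.2 and 38.1 RPM in U6-Lin28aIR, 30.4 and 29.2 RPM in U6-MosIR, 16.7 and 15.4 RPM in CAG-EGFP-Lin28IR, and 16.9 and 24.8 RPM in CAG-EGFP-MosIR libraries. Here too the promoter groups did not overlap. Of the 360 names in the test below, 31.1% had every U6 library above every CAG-EGFP library in RPM. With TMM scaling the log2 fold changes in U6 over CAG-EGFP libraries were 0.13 for miR-10a-3p and 0.28 for miR-10b-3p. As a share of both arms, miR-10a-3p made up 3.03 ± 0.128% in U6 and 2.84 ± 0.342% in CAG-EGFP libraries, and miR-10b-3p 1.69 ± 0.160% in U6 and 1.38 ± 0.117% in CAG-EGFP libraries (SD, n = 4 each).

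The guide-to-passenger ratio of Mir10b varied more between libraries than that of the 2 guides to each other. It was 66.8 and 55.2 in U6-Lin28aIR, 58.9 and 53.4 in U6-MosIR, 73.7 and 77.9 in CAG-EGFP-Lin28IR, and 63.8 and 71.5 in CAG-EGFP-MosIR libraries. With either hairpin both U6 wells were below both CAG-EGFP wells, but the pooled groups overlapped, because the first U6-Lin28aIR well was above the first CAG-EGFP-MosIR well. The geometric means were 58.4 in U6 and 71.5 in CAG-EGFP libraries (exact permutation test, two-sided, p = 0.0571, adjusted p = 0.229). As for the guides, a single ratio could hardly pass after adjustment over 8 ratio tests, so the test cannot decide whether this ratio differed. For Mir10a the ratio was 32.0 in U6 and 34.3 in CAG-EGFP libraries (exact permutation p = 0.4, adjusted p = 0.588), and 34.9 in Lin28 and 31.5 in Mos libraries (exact permutation p = 0.0857, adjusted p = 0.229). Its highest value, 41.4 in the second CAG-EGFP-Lin28IR well, stood beside 30.2 to 33.8 in the other 7 libraries. Counting error alone gives a coefficient of variation of 5.54% for the Mir10b ratio and 5.07% for the Mir10a ratio, against 13.7% and 10.5% observed.

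**Figure D3:**
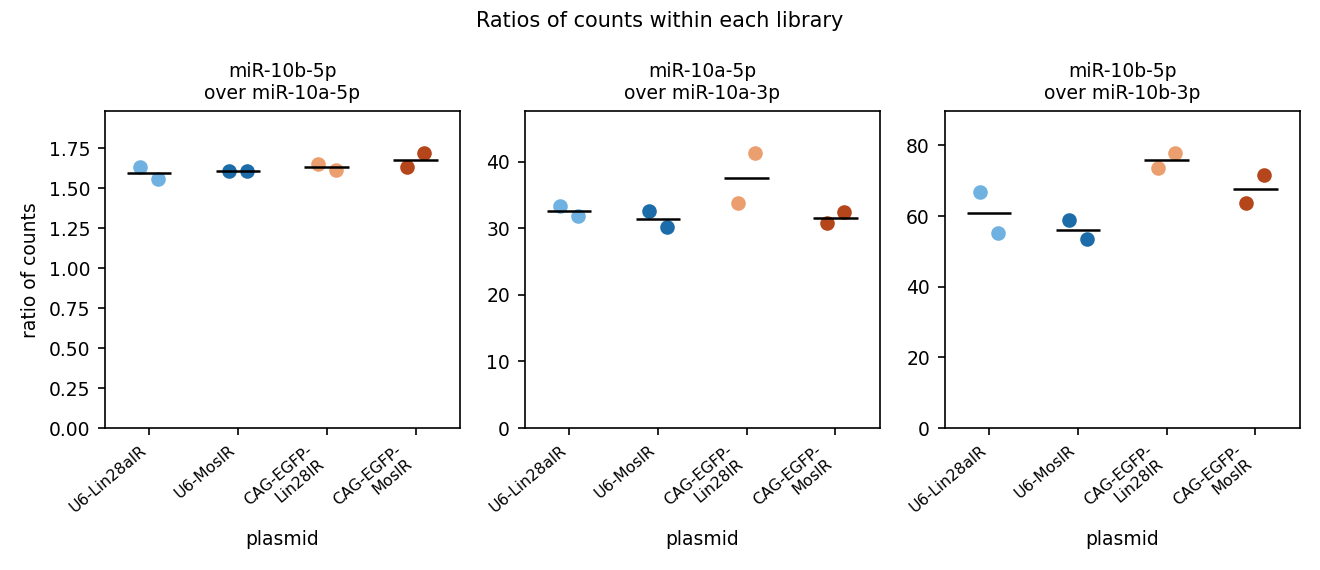
Ratios of counts within each library for miR-10b-5p over miR-10a-5p and for guide over passenger of Mir10a and Mir10b, 1 point per well and a line at the mean of each plasmid, all axes from 0. The ratio of the guides stays between 1.56 and 1.72, and the Mir10b guide-to-passenger ratio is between 53.4 and 66.8 in U6 wells and between 63.8 and 77.9 in CAG-EGFP wells.

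miR-196a-5p, the guide encoded by both Mir196a hairpins, was at 74.1 and 92.8 RPM in U6-Lin28aIR, 70.7 and 82.1 RPM in U6-MosIR, 65.4 and 44.1 RPM in CAG-EGFP-Lin28IR, and 50.6 and 67.0 RPM in CAG-EGFP-MosIR libraries. Every U6 well was above every CAG-EGFP well in RPM, an order that 31.1% of the 360 names in the test below also had. With TMM scaling its log2 fold change in U6 over CAG-EGFP libraries was -0.004. Its most similar profiles among the 186 candidates were let-7g-5p (root mean square difference of log2 CPM 0.10), let-7i-5p and miR-192-5p (0.11 each), against a median of 0.23. The seed of miR-196a-5p is present in let-7a-5p as well, shifted by 1 base, at bases 3 to 9 of the following sequence, shown with its own seed in capitals because the miR-196 and let-7 seeds overlap.
let-7a-5p: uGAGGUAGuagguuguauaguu

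The 8 let-7 guides, general miRNAs of differentiated cells, summed to 33215 ± 3254 RPM in U6 and 24281 ± 6949 RPM in CAG-EGFP libraries (SD, n = 4 each), far above miR-196a-5p in every library. miR-196a-5p and let-7a-5p share 7 consecutive bases and no longer stretch, so reads of one do not match the other.

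Both Mir196a hairpins carry the same 22 bases of miR-196a-5p, and only the bases outside them tell the hairpins apart. They are shown with the 3 bases before and the 5 bases after the mature sequence in capitals.
Mir196a-1: AAGuagguaguuucauguuguugggCCUGG
Mir196a-2: GCUuagguaguuucauguuguugggAUUGA

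Mir196a-1 (chr11:96265184-96265213 for the stretch shown, plus strand) had 7053 counts of miR-196a-5p over the 8 libraries and Mir196a-2 (chr15:102973362-102973391, plus strand) had 7989, which is the value used here for the name. These numbers probably hold mostly the same reads. The alignment kept reads that map to several loci, but how the counts credited them is not stated. The excess at Mir196a-2 was 936 counts, 11.7% of its total, and it was present in 8 of 8 libraries at 71 to 151 counts, or 9.71 to 14.2%. The opposite arms, whose sequences differ, had counts at Mir196a-1 only.
miR-196a-1-3p: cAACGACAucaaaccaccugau
miR-196a-2-3p: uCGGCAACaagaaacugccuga

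miR-196a-1-3p had 301 counts, 25 to 60 in each library, and averaged 2.95 ± 0.714 RPM in U6 and 2.17 ± 0.510 RPM in CAG-EGFP libraries (SD, n = 4 each). miR-196a-2-3p had 0 counts in all 8 libraries, which allows up to 0.233 RPM in the shallowest of them. Thus the passenger had reads at the HoxB hairpin and 0 at the HoxC hairpin, whereas more guide reads were counted at the HoxC locus. A read within the shared mature sequence matches both loci. If such reads were counted at both, this excess rests on bases outside that sequence. The first base after it is A at Mir196a-2 and C at Mir196a-1. Whether such end bases were encoded by the hairpin was not tested, so the excess does not show which hairpin made more guide. The sources used here do not say how a read was assigned to a mature miRNA, and which hairpin made the shared reads cannot be told apart.

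**Figure D4:**
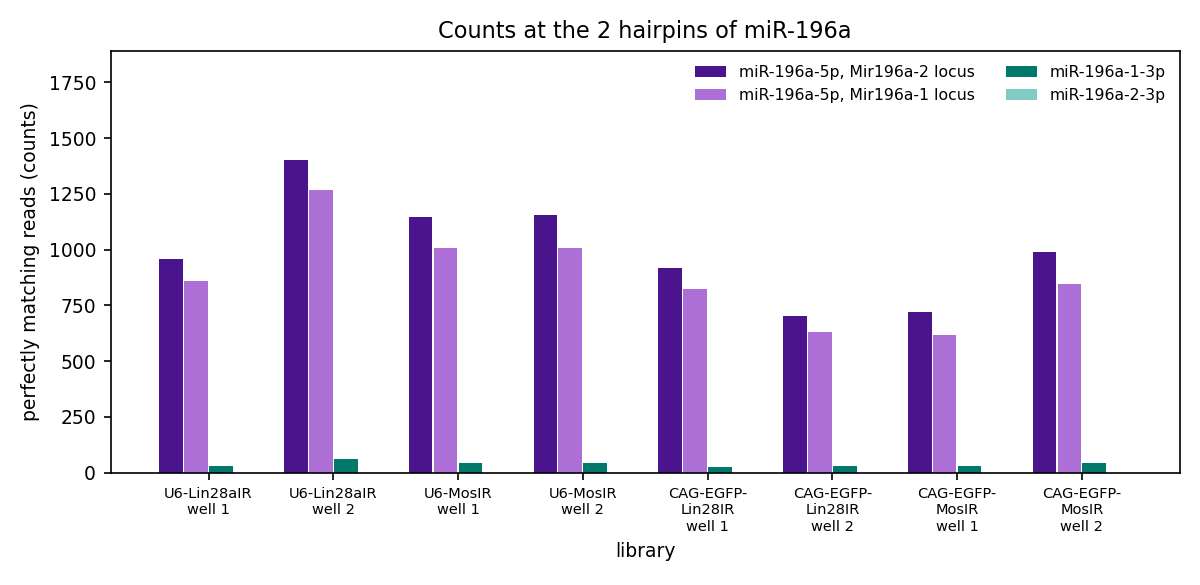
Perfectly matching reads in each library at the Mir196a-2 and Mir196a-1 loci of miR-196a-5p and on the opposite arms miR-196a-1-3p and miR-196a-2-3p. In 8 of 8 libraries the Mir196a-2 bar is the taller of the first pair, and miR-196a-2-3p has no bar because it has 0 counts.

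miR-196b-5p, from Mir196b at Hoxa9, had 1 count in all 8 libraries, in the first U6-Lin28aIR well. It made up 0.0125% of the summed counts of miR-196a-5p and miR-196b-5p (exact Clopper-Pearson 95% interval 0.000317 to 0.0697%, counting error of the pooled reads only). Its opposite arm miR-196b-3p had 0 counts in every library. Among the names with a RefSeq sequence, the AGGUAGU seed at bases 2 to 8 was therefore carried almost wholly by miR-196a-5p at this depth. The HoxA cluster gave no mature miRNA above the level of 3 counts.

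The HoxB cluster also holds the 3′ untranslated region with the most Watson-Crick pairs to miR-196a-5p among those searched. miR-196a-5p is known to direct cleavage of Hoxb8 mRNA, and the site is shown because it pairs along the whole miRNA. An ungapped search of the longest 3′ untranslated region of 20916 protein-coding genes of GENCODE M21, taking Watson-Crick pairs first and G:U pairs second, placed Hoxb8 first (chr11:96284888-96284909, plus strand, GRCm38), with 21 Watson-Crick pairs and 1 G:U pair over 22 bases. Capitals mark the bases with a Watson-Crick partner.
Hoxb8 site: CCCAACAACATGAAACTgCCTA

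Hoxb8 alone had 21 Watson-Crick pairs, which is 0.00478% of the genes searched, and the next gene had 17. With G:U pairs counted in full, 2 genes had a site paired at all 22 bases, 0.00956% of the genes. Hoxd8, second among the 39 Hox genes searched, reached 15 Watson-Crick pairs, and 4.42% of genes had a site with at least as many. mRNA levels were not measured in these libraries, so nothing is known here of Hoxb8 itself.

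miR-615-3p, from the intron of Hoxc5, was the least abundant member found in every library. It was at 6.90 and 9.60 RPM in U6-Lin28aIR, 6.59 and 8.66 RPM in U6-MosIR, 5.70 and 5.21 RPM in CAG-EGFP-Lin28IR, and 8.38 and 6.11 RPM in CAG-EGFP-MosIR libraries, from 80 to 145 counts each. The promoter groups overlapped, and the CAG-EGFP-Lin28IR wells were the lowest. Its opposite arm miR-615-5p had 12 counts, 11 of them in U6 libraries (5, 1, 2 and 3) and 1 in a CAG-EGFP-Lin28IR well, too few to pass the filter of the test. At Mir615 the 3p arm was thus the abundant strand, whereas at Mir10a and Mir10b it was the 5p arm.

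The first comparison asked whether the members differed between cells given U6 and CAG-EGFP plasmids. Relative to the other miRNAs, 0 of the 6 members tested passed an adjusted p of 0.05 in either direction. Counts were scaled with TMM, which sets the bulk of miRNAs to no change, and tested with edgeR's quasi-likelihood test over the 360 names that passed its filter, 6 of the 7 members among them; miR-196b-5p did not pass. Of all 360 names, 0.556% passed an adjusted p of 0.05, so a count of 0 among 6 is near the background. At an unadjusted p under 0.05 there were 0 of the 6 members and 32 of the 360 names, and DESeq2 also called 0 members. The log2 fold changes in U6 over CAG-EGFP libraries were 0.03 for miR-10a-5p (SE 0.15), -0.02 for miR-10b-5p (SE 0.16) and 0.13 for miR-10a-3p (SE 0.14). That of miR-10b-3p was the highest at 0.28 (SE 0.15, edgeR adjusted p = 0.562), that of miR-196a-5p was -0.004 (SE 0.14), and that of miR-615-3p the lowest at -0.18 (SE 0.17, edgeR adjusted p = 0.802). The direction of each of these but miR-10b-3p turned under at least 1 alternative. The median of the members was 0.01, against -0.002 for all 360 names, of which the middle 80% lay between -0.33 and 0.34.

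In RPM terms the same counts read differently. With the deposited number of perfectly mapped reads as library size, the median log2 fold change of all 360 names in U6 over CAG-EGFP libraries was 0.50, and that of the members was 0.51. On this scale 5 of 6 members passed the test, where 50.8% of all names did, and these 5 rose in U6 libraries, where 50.3% of all names did. miR-10b-3p rose 1.72-fold (log2 0.78, SE 0.18, edgeR adjusted p = 0.00149), miR-10a-3p 1.55-fold, miR-10a-5p 1.44-fold, miR-196a-5p 1.41-fold and miR-10b-5p 1.39-fold (log2 0.47, SE 0.19, edgeR adjusted p = 0.0361). miR-615-3p was 1.26-fold higher without passing the test (edgeR adjusted p = 0.132). In RPM, 3 of the 6 members had every U6 library above every CAG-EGFP library, where 31.1% of all names did. The share of reads on miRNAs moved with these values, as given above, and its part in them was not tested.

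**Figure D5:**
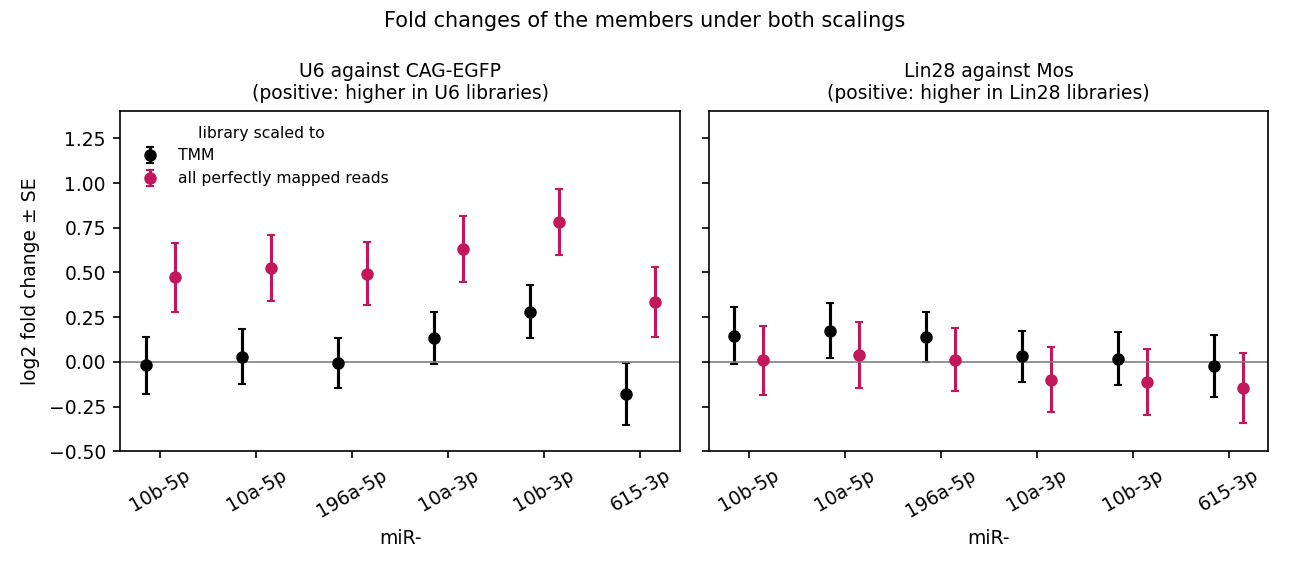
Log2 fold change with standard error (edgeR) of the 6 members that passed the filter, U6 against CAG-EGFP on the left and Lin28 against Mos on the right, with libraries scaled by TMM (black) or to all perfectly mapped reads (red). For U6 against CAG-EGFP the TMM values lie between -0.18 and 0.28 and the others between 0.34 and 0.78.

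Within each hairpin the members lay near the bulk of miRNAs. With TMM, 0 of 6 passed the edgeR test in U6 over CAG-EGFP libraries of the Lin28 plasmids, where 0.556% of names did, and 0 of 6 in those of the Mos plasmids, where 0 of 360 names did. The member medians were -0.02 with the Lin28 and 0.07 with the Mos plasmids, against 0.005 and 0.01 for all names. On the RPM scale, 5 of 6 passed with the Lin28 plasmids, where 56.7% of all names did, and these 5 rose, where 56.4% of all names did. The count was 0 with the Mos plasmids, where 0 of 360 names did and 0 of the 6 members had an unadjusted p under 0.05. Their median log2 fold change was 0.73 with the Lin28 and 0.31 with the Mos plasmids, against 0.75 and 0.27 for all names. The interaction of promoter and hairpin, which tests that difference, passed for 0 of 6 members and 0 of 360 names with either scaling.

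The second comparison asked whether the members differed between cells given Lin28 and Mos hairpins. None of the 6 passed, as 0 of 360 names did (0 of 6 members and 10 of 360 names at an unadjusted p under 0.05 with edgeR). The TMM log2 fold changes in Lin28 over Mos libraries were 0.18 for miR-10a-5p (SE 0.15), 0.15 for miR-10b-5p (SE 0.16) and 0.14 for miR-196a-5p (SE 0.14), and those of the remaining 3 lay between -0.02 and 0.03. The members had a median of 0.08 and all names one of 0.04. Within U6 plasmids the members ranged from 0.003 to 0.14 in Lin28 over Mos libraries, and within CAG-EGFP plasmids from -0.04 to 0.27, with 0 of 6 members and 0 of 360 names (0%) called by edgeR in each. At an unadjusted p under 0.05 there were 0 members in each, and 1 and 20 of the 360 names.

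Across the 8 libraries the members varied about as much as other miRNAs. After TMM scaling the SD of log2 CPM was 0.16 for miR-10a-3p, 0.17 for miR-196a-5p, 0.19 for miR-10a-5p, and 0.20 for miR-10b-5p and miR-10b-3p, against a median of 0.20 over 187 names at 10 RPM or more. The reads of the members also matched the genome as well as those of other miRNAs. When up to 2 mismatches were allowed, 99.1% of miR-10a-5p, 99.1% of miR-10b-5p, 99.5% of miR-196a-5p and 99.6% of miR-10b-3p reads matched without one, against a median of 99.3% over 231 names with at least 500 counts.

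The miR-99, miR-100 and miR-125 guides, the relatives of miR-10 in sequence that lie outside the Hox clusters, are set beside it because their reads and seeds are close to its own. They are shown with the seed in capitals.
miR-99a-5p: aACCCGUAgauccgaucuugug
miR-99b-5p: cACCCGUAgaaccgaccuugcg
miR-100-5p: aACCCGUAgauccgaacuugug
miR-125a-5p: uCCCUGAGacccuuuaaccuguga
miR-125b-5p: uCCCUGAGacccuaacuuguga

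Their seeds differ from the miR-10 seed, and the longest stretch shared with a miR-10 guide was 11 bases, between miR-10a-5p and miR-100-5p. miR-125b-5p, a homologue of the worm lin-4, was the most abundant of them at 5455 ± 1140 RPM (SD, n = 8), 3.43 times the counts of miR-10b-5p. miR-99b-5p was at 1436 ± 283 RPM, miR-125a-5p at 1289 ± 152 RPM and miR-100-5p at 898 ± 216 RPM (SD, n = 8 each). miR-99a-5p had 0 to 3 counts in each library, at or below the level of 3 counts. In U6 over CAG-EGFP libraries with TMM, the log2 fold change of miR-125a-5p was -0.48 (SE 0.15, edgeR adjusted p = 0.257). Those of miR-99b-5p, miR-125b-5p and miR-100-5p were between -0.21 and -0.02, so 0 of 4 passed. miR-125a-5p stood at 1299 ± 191 RPM in U6 and 1278 ± 131 RPM in CAG-EGFP libraries (SD, n = 4 each). Both miR-10 guides had higher mean RPM in U6 than in CAG-EGFP libraries. So did miR-100-5p (1049 against 747 RPM), miR-125b-5p (6237 against 4673 RPM) and miR-99b-5p (1578 against 1294 RPM).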

How the data were processed

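Small RNA was sequenced (NEXTflex kit, Illumina) from NIH3T3 (3T3) cells, 2 wells for each of 4 plasmids. The amount of plasmid per well differs between the labels and the methods. The authors trimmed adapters and aligned the reads with STAR 2.5.3a (mm10 and the plasmid sequences), allowing up to 2 mismatches and keeping multimapped reads. They deposited raw counts for each locus of a mature miRNA and the mapped reads of each library. The rule that assigned reads to miRNAs was not found in the labels or methods.

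A name at several loci was counted once, at the locus with the highest total. RPM is the count without mismatches over perfectly mapped reads. The count test was edgeR 4.0.16 (R 4.3.3; TMM, filterByExpr, robust quasi-likelihood F test, 1 fit of the 4 plasmids, Benjamini-Hochberg over 360 names, threshold 0.05), checked on simulated data. Ratios (pseudocount 0.5) were compared by two-sided exact permutation tests on log2 ratios over 70 assignments, which join 2 plasmids per side. Likeness was the root mean square difference of centred log2 CPM over names of at least 10 RPM. Alternatives were DESeq2 1.42.0, other library sizes, filters, mismatches and locus rules, a replicate block, and leaving out each library. The members, their other arms, their relatives, the let-7 guides and the most abundant miRNA were named. Members and lists were chosen with earlier results of these data known. Hairpin siRNAs were not analysed here.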

Additional observations from a re-analysis of the deposited data

Results flagged for a closer look

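In 4 of 60 sets of 4 libraries, 1 library lay far from the other 3, where chance gives about 1 in 20 sets, or 3. On the TMM scale the second U6-MosIR well was low among U6 libraries for both miR-10 guides, at 5031 CPM of miR-10a-5p against 6182 to 6312 CPM in the others, and at 8088 CPM of miR-10b-5p against 9847 to 10142 CPM. For miR-10b-3p the second CAG-EGFP-MosIR well, at 24.8 RPM, was above the 15.4 to 16.9 RPM of the other CAG-EGFP libraries. On the TMM scale this well, at 152 CPM against 115 to 137 CPM in the others, was not flagged. For miR-615-3p the first U6-Lin28aIR well, at 36.9 CPM on the TMM scale, was below the 44.9 to 46.3 CPM of the other Lin28 libraries. None of these flags was raised on both the RPM and the TMM scale.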

How the results depend on the processing

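With the deposited library sizes in place of TMM, 50.8% of all names passed in U6 against CAG-EGFP and 56.7% in its Lin28 part. Each share was 0.556% with TMM. The count of members past the threshold was 5 in each with the deposited sizes, against 0 with TMM. It was 0 in both under every other alternative run. Under those alternatives the smallest adjusted p of a member's fold change was 0.146 (edgeR or DESeq2). That minimum was taken over U6 against CAG-EGFP and Lin28 against Mos, without the parts by hairpin or promoter. Fold changes turned their sign 37 times of 202, and 24 of these turned when a library was omitted; the cause was not tested. In U6 over CAG-EGFP libraries the log2 fold change turned to 0.47 for miR-10b-5p, 0.49 for miR-196a-5p and 0.34 for miR-615-3p with the deposited sizes, to 0.015 and 0.031 for miR-10b-5p and miR-196a-5p without a filter, and to 0.0071 for miR-196a-5p with summed loci. In Lin28 over Mos libraries miR-10a-3p turned to -0.012 (DESeq2), -0.10 (deposited sizes) and -0.027 (no filter), and miR-10b-3p to -0.023, -0.11 and -0.039 and to -0.0046 with names of at least 10 RPM. With single libraries left out, U6 over CAG-EGFP ranged from -0.12 to 0.17 for miR-10a-5p, -0.00076 to 0.26 for miR-10a-3p, -0.19 to 0.14 for miR-10b-5p and -0.10 to 0.079 for miR-196a-5p, and Lin28 over Mos from -0.11 to 0.14 for miR-10a-3p, -0.019 to 0.30 for miR-10b-5p, -0.11 to 0.13 for miR-10b-3p and -0.16 to 0.10 for miR-615-3p. Most of these extremes came from leaving out the first or the second CAG-EGFP-MosIR well. The log2 ratio of miR-196a-5p over miR-196b-5p, which rests on 1 count of miR-196b-5p, ranged from -0.13 to 0.58 in U6 over CAG-EGFP libraries. Deviations of wells with the same replicate number correlated at -0.14 to 0.20 over 360 names. Whether such wells were handled together is not known here. With the replicate number as a block, 0 members passed in each comparison and miR-10b-3p had a log2 fold change of 0.29 in U6 over CAG-EGFP libraries (edgeR adjusted p = 0.630). Depth limits miR-196b-5p and miR-615-5p, whose counts are at or near the level of 3.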
